A study of Homo sapiens with 4 samples.

Results

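The TREX complex couples transcription and splicing of mRNA to its export from the nucleus. Its core, THO, is built from THOC1, THOC2, THOC3, THOC5, THOC6 and THOC7, and works with an RNA helicase of the DDX39 pair, DDX39A or DDX39B, that loads export factors onto the mRNA. The mRNA is then handed to the export receptor, a pair of NXF1 and its partner NXT1, which carries it through the nuclear pore. THOC7 is a coiled-coil subunit that pairs with THOC5 inside THO. These 10 genes, out of 36337 gene names on the array, were measured by 12 of its 50599 probes, found by gene name with every matching probe kept. THOC7 was chosen by its fall in the same mimic-against-control contrast that is described here, so its values are given as a description with no test. The other 9 genes were chosen by their place in the complex, with earlier results of these data known.

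GIST-T1 cells, an established human line from a gastrointestinal stromal tumor (GIST), had been nucleofected with 100 pmol of a miR-335 mimic, a double-stranded RNA made to work like the natural microRNA, or with 100 pmol of the mirVana Negative Control #1 mimic. RNA was taken 48 h later, and 100 ng of it was labeled with Cy3 for each 1-color array. There were 2 miR-335 mimic arrays and 2 control miRNA arrays, all of 1 cell line with no untransfected cells, and the labels do not say whether the replicates came from separate cultures, so p-values measure the spread between these arrays, which may be technical. Per array, 40.3% to 41.9% of probes were well above background, all 4 arrays lay on 1 slide, and the controls held positions 1 and 2 and the mimics positions 3 and 4, so that position and group cannot be told apart. The 6 GIST markers (KIT, ANO1, ETV1, PRKCQ, CD34 and PDGFRA) were well above background on all 4 arrays. So were EPCAM, 1 of 3 epithelial markers, CD14, 1 of 3 leukocyte markers, and DES and SMTN, 2 of 3 smooth muscle markers, whereas CDH1, KRT19, PTPRC, CD3E, PECAM1, VWF and MYH11 were not so on any array, and CDH5, the third endothelial marker, was so on 1 mimic and 1 control array.

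The labels do not name which strand of the miR-335 hairpin the mimic carried. Both mature forms are shown because they are the sequences that could have been introduced, with the seed (bases 2 to 8, the stretch that pairs with a target) in capitals. The 2 seeds differ. The sequences are those of RefSeq, build GRCh38.p14.
hsa-miR-335-5p (chr7:130496126-130496148, plus strand): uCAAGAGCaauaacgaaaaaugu
hsa-miR-335-3p (chr7:130496162-130496183, plus strand): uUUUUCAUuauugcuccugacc

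Each value below is the brightness of a 60-base probe, and the probes shown next define which stretch of each transcript was read. They are written 5′ to 3′ in the sense of the mRNA, with hg19 coordinates as the array files give them.
THOC7 (chr3:63820842-63821001, minus strand): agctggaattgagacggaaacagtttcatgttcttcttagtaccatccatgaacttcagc
THOC5 (chr22:29916023-29916082, minus strand): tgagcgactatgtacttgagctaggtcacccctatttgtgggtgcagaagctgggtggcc
THOC6 (chr16:3076557-3076707, plus strand): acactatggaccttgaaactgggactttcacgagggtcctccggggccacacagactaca
DDX39A (chr19:14519888-14519947, minus strand): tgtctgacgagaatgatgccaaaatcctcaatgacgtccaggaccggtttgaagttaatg
DDX39B (chr6:31504301-31504360, minus strand): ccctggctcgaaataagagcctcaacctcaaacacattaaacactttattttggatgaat
NXF1 (chr11:62561878-62562431, minus strand): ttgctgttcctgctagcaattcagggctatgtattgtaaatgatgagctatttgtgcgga
The probes of THOC7, THOC6 and NXF1 span 160, 151 and 554 genomic bases, more than their 60 bases, so each bridges at least 1 gap between aligned blocks of the genome. No other probe of the array shared a run of 20 bases with any of the 12 member probes.

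THOC7 was lower on both mimic arrays than on both control arrays. Its background-subtracted signal was 724 and 769 intensity units on the mimic arrays and 1524 and 1522 on the control arrays, and all 4 spots were well above background. On the log2 scale, after subtraction of each array's 75th percentile, the levels were 1.93 and 2.07 with the mimic and 3.09 and 3.07 in the control. The mean was 2.00 ± 0.10 (SD, n = 2) with the mimic and 3.08 ± 0.02 (SD, n = 2) in the control, a difference of -1.08 on the log2 scale. The THOC7 signal with the mimic was thus 47.4% of the control level. The 4 differences between a mimic and a control array ran from -1.16 to -0.995, against 0.14 between the mimic replicates, the larger of the 2 replicate gaps. In these bulk samples, fewer cells with THOC7 mRNA and less of it per cell cannot be told apart.

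Of 20328 tested probes, THOC7 had the 55th lowest difference. Among the 2116 tested probes whose control level lay within 0.5 of that of THOC7 on the log2 scale, 2, THOC7 included, were at least as far below the control. These values describe how the gene was chosen.

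**Figure D1:**
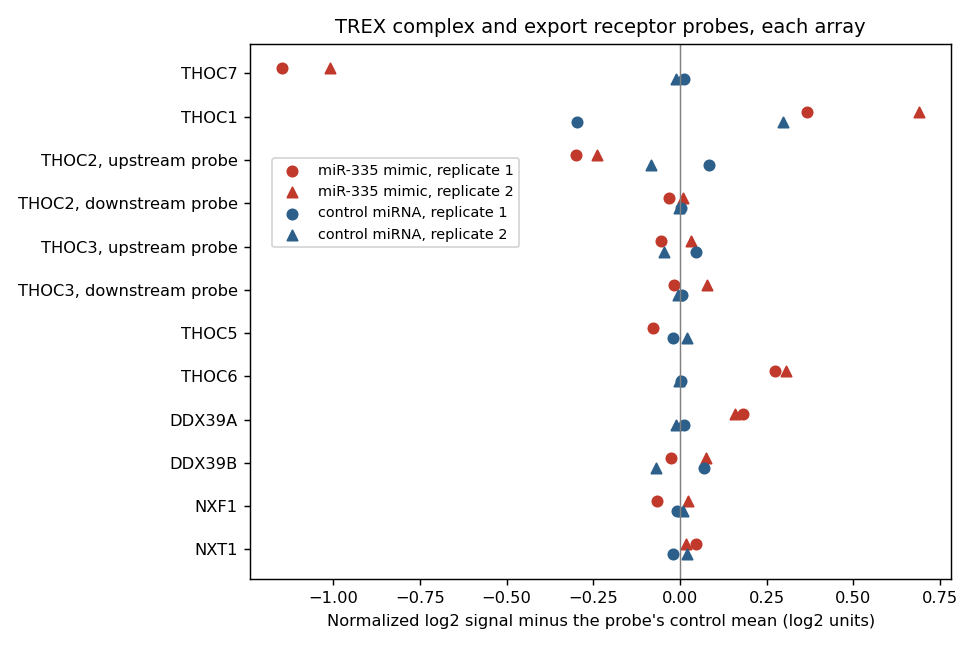
Normalized log2 signal of the 12 member probes on each of the 4 arrays, minus the probe's own control mean, in log2 units; red marks are miR-335 mimic arrays, blue marks control miRNA arrays, and circles and triangles are replicates 1 and 2. The mimic arrays of THOC7 sit 1.15 and 1.01 below its control mean, and the flagged THOC5 spot of mimic replicate 2 is not drawn.

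Of the other members, 10 of 11 probes, for 8 of 9 genes, could be tested across both groups with limma, a linear model with moderated variances, and 0 of the 10 passed a Benjamini-Hochberg adjusted p of 0.05, whereas 2.62% of all tested probes did. An unadjusted limma p below 0.05 was found for 3 of the 10, against 25.3% of all tested probes. Differences over 1.5-fold numbered 0 of 10, against 3.90% of all tested probes, and the 2 groups did not overlap in 4 of 10, against 59.7%. The median difference of the 10 probes was 0.03 on the log2 scale, beside -0.01 over all tested probes. With 2 arrays per group, the exact permutation test on 1 probe could not give a two-sided p below 0.333.

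Among the remaining THO subunits, the 6 tested probes had differences between -0.27 and 0.53, and THOC5 could not be tested. THOC2, the large scaffold subunit, had 2 probes. On the upstream probe (chrX:122747960-122748019, minus strand) the log2 levels were -0.51 and -0.45 with the mimic and -0.13 and -0.29 in the control, a difference of -0.27 (limma 95% interval -0.48 to -0.05) that did not pass the threshold (limma adjusted p = 0.150). On the downstream probe (chrX:122734486-122734545, minus strand) the 4 levels lay between 0.91 and 0.95 and the groups overlapped, with a difference of -0.01 (-0.12 to 0.10). Whether the 2 probes differed from each other was not tested.

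THOC3, a WD40-repeat subunit, also had 2 probes, and both list a transcribed pseudogene copy beside THOC3 among their accessions, so that signal from the gene and from the copy cannot be separated. The upstream probe (chr5:175394946-175395005, minus strand) had log2 levels of 1.39 and 1.47 with the mimic and 1.49 and 1.40 in the control. The downstream probe (chr5:175386774-175386833, minus strand) had 4.36 and 4.46 with the mimic and 4.38 and 4.37 in the control. The groups overlapped on both probes, and the differences were -0.01 (limma 95% interval -0.18 to 0.16) and 0.03 (-0.12 to 0.18).

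THOC6, the other WD40-repeat subunit, lay higher with the mimic on every array. Its log2 levels were -0.99 and -0.96 with the mimic and -1.26 and -1.27 in the control, and its signals 95.5 and 94.1 against 74.7 and 75.5 intensity units. The difference of 0.29 (limma 95% interval 0.18 to 0.40), or 1.22-fold, had the smallest adjusted p among the members other than THOC7, 0.0616 in limma, and did not pass the threshold. It did so under 2 of the other settings, with an adjusted p of 0.0491 after scaling to the median of the detected probes and 0.0436 after normexp background correction (limma), and it was 0.10 under spike-in scaling. THOC6 and THOC7 differed in sign under each setting tried.

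THOC1, a THO subunit also known for binding the retinoblastoma protein, was the dimmest member (chr18:226842-226901, minus strand). Its log2 levels were -2.02 and -1.70 with the mimic and -2.68 and -2.09 in the control, and the spot of control replicate 1, at 27.8 intensity units, was not well above background. The groups did not overlap, but the control replicates alone differed by 0.59. The difference of 0.53 had a limma 95% interval of -0.21 to 1.26 (adjusted p = 0.297), which runs from 0.866- to 2.40-fold, so at this brightness a change of THOC1 could not be resolved. It was 0.18 under normexp background correction, 0.23 without control replicate 1 and 0.82 without control replicate 2.

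THOC5, the partner of THOC7 within THO, could not be tested, since its spot on mimic replicate 2 was marked non-uniform by the scanner software. The other arrays gave 1.48 on mimic replicate 1, and 1.53 and 1.57 in the control. The lone mimic value was 0.08 below the control mean, larger than the gap of 0.04 between the control replicates. In an added fit that kept probes with 1 such array, this difference of -0.08 ± 0.06 (SE) had a limma adjusted p of 0.470, with the lone array assumed to vary like the others.

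**Figure D2:**
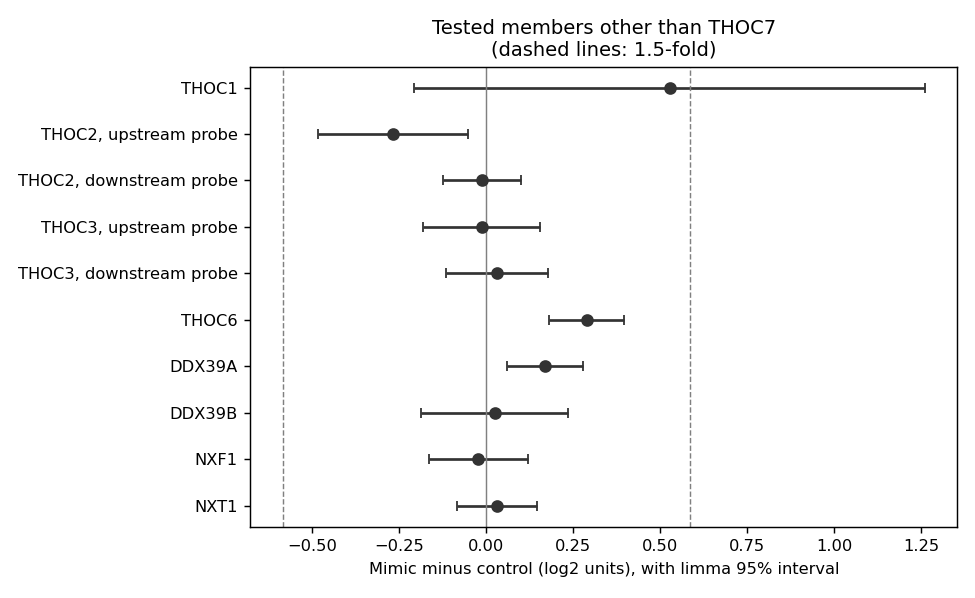
Mimic minus control difference, in log2 units, of the 10 tested member probes other than THOC7, with limma 95% intervals from 2 arrays per group; the dashed lines mark 1.5-fold. Only the interval of THOC1 reaches a dashed line, and the intervals of the upstream THOC2 probe, THOC6 and DDX39A leave out 0 before any adjustment for the 20328 probes.

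The helicases came next. DDX39A had log2 levels of 5.02 and 5.00 with the mimic and 4.85 and 4.83 in the control, so both mimic arrays were above both control arrays. The difference of 0.17 (limma 95% interval 0.06 to 0.28) did not pass the threshold (limma adjusted p = 0.116), although it did when the variance was modeled with an intensity trend (0.00679, limma), and it was -0.02, with the opposite sign, under spike-in scaling. DDX39B had levels of 0.70 and 0.80 with the mimic and 0.79 and 0.65 in the control, which overlapped. Its difference was 0.02 (limma 95% interval -0.19 to 0.24).

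The export receptor gave narrow intervals. NXF1 had log2 levels of 2.33 and 2.42 with the mimic and 2.39 and 2.40 in the control, with a difference of -0.02. Its limma 95% interval of -0.16 to 0.12 corresponds to 0.893- to 1.09-fold. NXT1 (chr20:23335235-23335294, plus strand) had levels of 4.25 and 4.22 with the mimic and 4.18 and 4.22 in the control, a difference of 0.03 with an interval of -0.08 to 0.15, or 0.943- to 1.11-fold. The groups overlapped for both genes. The limma 95% intervals of all 10 tested probes other than THOC7 had their lower ends at -0.48 or above.

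**Figure D3:**
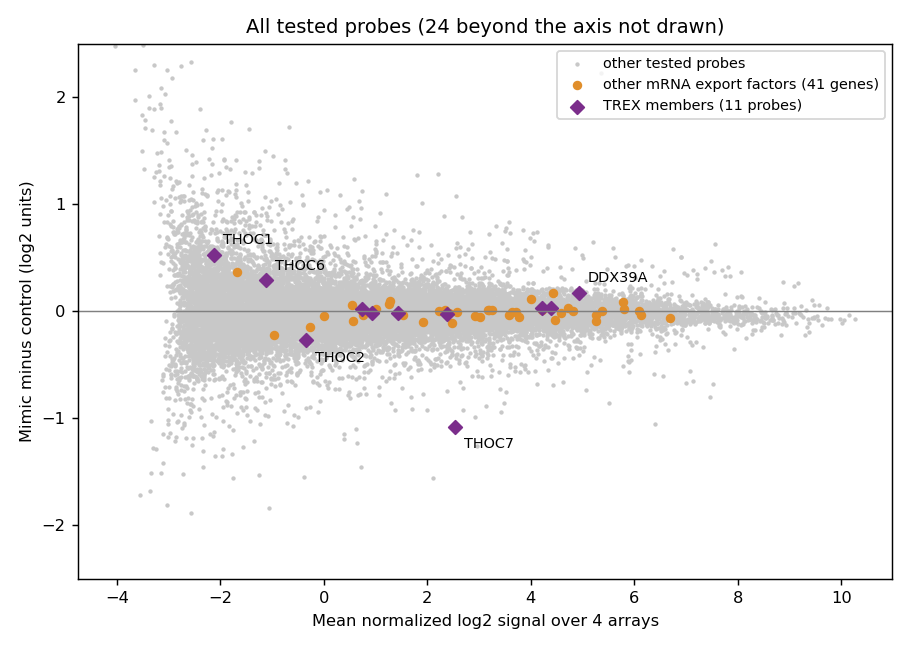
Mimic minus control difference (log2 units) against the mean normalized log2 signal over the 4 arrays for the tested probes, with 24 probes beyond ±2.5 not drawn; purple diamonds are the 11 tested member probes and orange points 41 other mRNA export genes. THOC7 lies at -1.08 and the other members between -0.27 and 0.53, with the wider of these at low signal.

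A list of 45 other mRNA export genes was examined beside the members, with the brightest tested probe of each gene. Of these, 41 were tested and 0 passed the adjusted threshold in limma, against 2.62% of all tested probes. An unadjusted limma p below 0.05 was found for 3, against 25.3% of all tested probes. LUZP4, NXF2, NXF3 and NXF5 were not well above background on both arrays of either group. The differences of the 41 genes lay between -0.22 and 0.37, with 22 below and 19 above 0 and a median of -0.01, which is that of all tested probes. Over 1.5-fold were 0 of the 41, against 3.90% of all tested probes.

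Adaptor proteins, which link the mRNA to the NXF1 receptor, included ALYREF, the classic TREX adaptor, under its older name THOC4. ALYREF was 4.50 ± 0.06 (SD, n = 2) with the mimic and 4.34 ± 0.04 in the control, a difference of 0.17 (limma 95% interval 0.02 to 0.32, adjusted p = 0.170). The other 6 tested genes that the list groups with the adaptors (CHTOP, ERH, FYTTD1, POLDIP3, SARNP and ZC3H11A) lay between -0.08 and 0.01. SARNP, which binds the TREX helicase, was 5.25 ± 0.01 with the mimic and 5.28 ± 0.01 in the control.

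The SR proteins SRSF1, SRSF3 and SRSF7 are splicing factors that also recruit NXF1. SRSF1 had the lowest difference on the list, -0.22 (limma 95% interval -0.48 to 0.03, adjusted p = 0.233; -0.14 without control replicate 2 and -0.12 under normexp background correction), SRSF3 had -0.09 and SRSF7 0.12 (adjusted p = 0.177). Cap-binding genes (NCBP1, NCBP2 and NCBP3) lay between -0.10 and 0.06, and the 7 exon junction genes, among them EIF4A3, RBM8A and MAGOH, between -0.09 and 0.03. In both of these groups 0 genes had an unadjusted limma p below 0.05, against 25.3% of all tested probes.

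At the pore, the 6 genes of TREX-2, a second export complex that docks at the nuclear basket, lay between -0.03 and 0.02. The 10 nuclear pore genes lay between -0.15 for RANBP2, a component of the cytoplasmic filaments (limma 95% interval -0.28 to -0.01, adjusted p = 0.174), and 0.09. GLE1, which activates the helicase that strips export factors from the mRNA outside the pore, had the highest difference of the list, 0.37 (limma 95% interval -0.02 to 0.76, adjusted p = 0.211). Its log2 levels were -1.56 and -1.43 with the mimic and -1.70 and -2.03 in the control, and the groups did not overlap. The difference was 0.15 under normexp background correction and 0.21 without control replicate 2. The helicases that work with GLE1, DDX19A and DDX19B, had -0.05 and -0.11. XPO1, an exportin that carries proteins and some RNAs by another route, had 0.01.

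**Figure D4:**
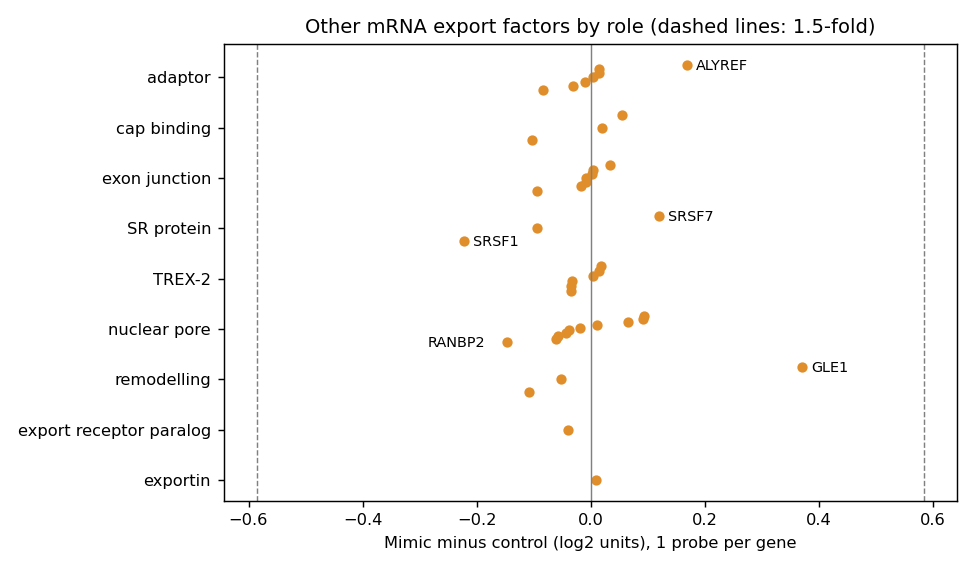
Mimic minus control difference (log2 units) of 41 mRNA export genes outside the member set, 1 point per gene (its brightest tested probe), by role; the dashed lines mark 1.5-fold. All 41 points lie between -0.22 (SRSF1) and 0.37 (GLE1), inside the dashed lines.

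Genes beside THOC7 on chromosome 3 were read to place its difference. By the RefSeq gene table of GRCh38.p14, SNTN, C3orf49, ATXN7, PSMD6 and PRICKLE2 neighbour it, and C3orf49 and ATXN7 overlap it. SNTN, C3orf49 and ATXN7 were not well above background on any array. PSMD6, a proteasome subunit gene, had log2 levels of 3.67 and 3.68 with the mimic and 3.68 and 3.64 in the control, a difference of 0.02 (limma 95% interval -0.09 to 0.12). PRICKLE2, a planar polarity gene, had -2.48 and -2.68 with the mimic and -1.91 and -2.10 in the control, a difference of -0.57 (limma 95% interval -0.88 to -0.26, adjusted p = 0.0937) at signals of 28.6 to 47.4 intensity units, and it was -0.17 under normexp background correction. No probe carried the name of THOC7-AS1, the antisense gene beside THOC7.

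Among the 5 genes whose pattern over the 4 arrays was most like that of THOC7 were ROBO3, SNORD3B-1, AP3S1 and INMT, by Euclidean distance between log2 values centered on each probe's mean, among 19352 probes well above background on every array. Since THOC7 was chosen for its fall, genes like it fell by construction, and no test is given. ROBO3, an axon guidance receptor, was nearest, at a distance of 0.018, with log2 levels of -1.20 and -1.05 with the mimic and -0.03 and -0.07 in the control. SNORD3B-1 (distance 0.091) encodes a copy of the U3 small nucleolar RNA, whose near-identical copies a probe may not separate. AP3S1 (distance 0.097), a subunit of an adaptor complex for vesicle sorting, had differences of -0.99, -0.98 and -0.89 on its 3 probes. The probes with -0.99 (chr5:115249549-115249608) and -0.89 (chr5:115249541-115249600) overlap and read largely the same stretch. INMT (distance 0.121), a methyltransferase for small amines, had -0.97, and its 2 other probes were not well above background on any array.

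The scaling moved the values of all genes together. Under scaling to the external spike-in probes (7 of 10 well above background), the median of all tested probes moved to -0.20. THOC7 was then -1.26, or -1.06 relative to that median, and NXF1 was -0.21, or -0.01 relative to it. Over the scalings, background corrections and left-out arrays tried, the THOC7 difference stayed between -1.26 and -0.997.

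**Figure D5:**
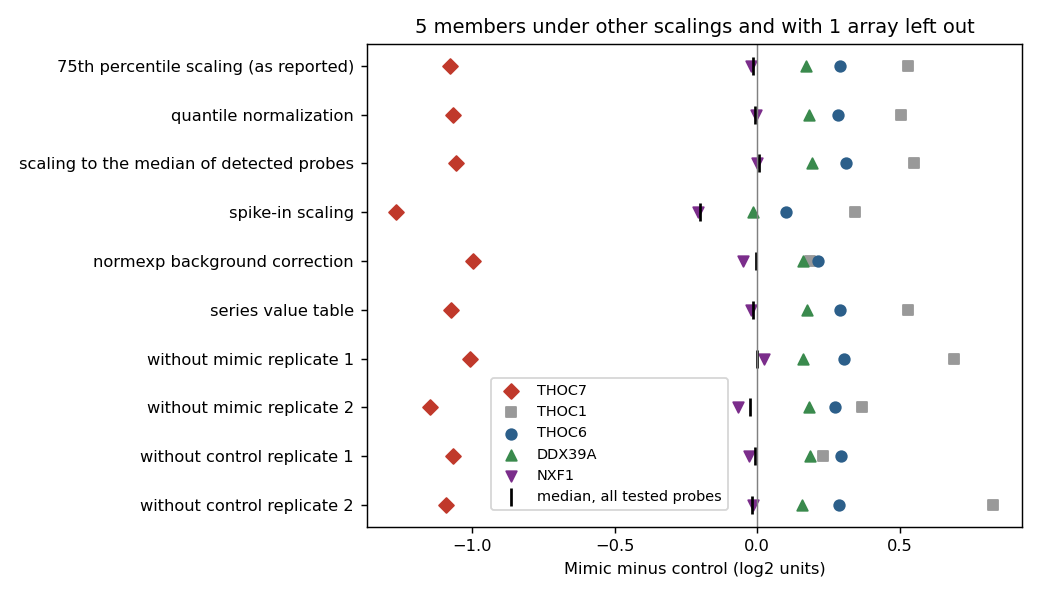
Mimic minus control difference (log2 units) of 5 members under the reported scaling, 5 other ways of processing the signals and with each array left out in turn; black bars are the median of all tested probes under that setting. THOC7 stays between -1.26 and -0.997, while DDX39A changes from 0.17 to -0.02 and NXF1 from -0.02 to -0.21 under spike-in scaling.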

How the data were processed

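The deposited files hold spot intensity values that the authors obtained with Agilent Feature Extraction 10.7.3.1 (10.7 in the submitters' processing notes) from 4 human SurePrint arrays. Background subtraction and detrending had been applied to the processed intensity, with no normalization between arrays, and the deposited series table holds it rounded (0 of its columns matched no sample). Mean and local background intensity served 1 alternative. A second description line of the mimic arrays names miR-34a, whereas their title and transfection label name miR-335, which was followed here.

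Spots flagged as non-uniform or population outliers (356 to 395 per array) were left out, no spot was saturated, replicate spots were averaged on the log2 scale, and each array's 75th percentile (178.8 to 189.7 intensity units) was subtracted. The number of arrays limits the precision. Probes well above background in at least 0.5 of their spots on both arrays of a group, with a value on all 4 arrays, were tested (20328 probes, 15454 gene names). Groups were compared with limma 3.58.1 (R 4.3.3; lmFit, eBayes, no covariates), with Benjamini-Hochberg adjustment over the whole table and a threshold of 0.05. Intervals are 95% limma intervals before adjustment. The fit was tested on simulated data. GeneSpring, used in the study, was not run here.

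The members and lists were chosen with earlier results of these data known. The genes named were all members, listed export genes past the threshold together with the list's lowest and highest difference, 5 gene neighbours and the 5 genes nearest THOC7 in pattern, of which 1 is not reported here; other export genes were named for their role. Names of genes and their hg19 positions were taken from the array files, which give ALYREF, NCBP3, SEM1 and NUP42 under older names. Alternatives were other scalings, background corrections, filters and variance models, each array left out, a replicate block, and 2 treatments of flagged spots added after seeing the data. Another was the t-test of the paper's methods, which are not specific about a test for the arrays. On the arrays, the paper counted genes lowered by more than 1.5-fold. Figures were drawn with matplotlib 3.10.9.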

Additional observations from a re-analysis of the deposited data

Results flagged for a closer look

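The THOC5 spot on mimic replicate 2 lies outside the comparison because the scanner software marked it non-uniform, and it carried a signal far above the control arrays. Its processed signal was 42940 intensity units, against 528 on mimic replicate 1 and 518 and 540 on the control arrays. The median of its pixels was 48858 with an SD of 26223, against a pixel SD of 95.8 to 108 for the same spot on the other 3 arrays. Of the 49 spots within 3 rows and columns of it on that array, 8, THOC5 included, were marked as outliers, with signals from 27045 to 50100, whereas 0 of the same 49 were marked on each of the other 3 arrays. The whole array had 42 spots marked non-uniform among 62976. With such spots kept, the THOC5 difference became 3.12 ± 2.39 (SE) with a limma adjusted p of 0.472, which rests on that spot. The cause was not tested.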

How the results depend on the processing

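The count of 532 called probes was 9592 under spike-in scaling, 1550 under normexp correction, 3083 with an intensity trend, 0 with no filter on dim probes (limma, 3627 with an unadjusted p below 0.05), and, by the methods' t-test, 4115 unadjusted and 0 after adjustment. It was 8 without mimic replicate 2 and 0 when mimic replicate 1 or either control replicate was left out, with 3578 to 3907 at an unadjusted p below 0.05 in limma. Each of these fits leaves 1 array in a group. The count of member probes past the limma threshold was 1 of 11, beside 532 of all 20328 tested probes. That probe was THOC7, which was chosen by its fall in this contrast, so its passing is no test. The count was 2 after scaling to the detected median and under normexp correction (THOC6 added) and with the trend (DDX39A added), 4 under spike-in scaling (NXF1 and both THOC2 probes added), 3 by the unadjusted methods' t-test (THOC6 and DDX39A added), and 0 after its adjustment, with no filter and without any 1 of the 4 arrays. Of all 20328 tested probes, 9592 were called under spike-in scaling and 3083 with the trend. The same count was 1550 under normexp correction and 539 after scaling to the detected median. With the replicate number as a block, 0 of the members and 0 of all probes were called (limma, 4400 unadjusted). The replicate numbers come from the labels, which do not say whether the arrays were paired. Over the tested probes, the replicate differences of the 2 groups correlated at 0.03, which cannot decide this. The slide was not used as a block because all 4 arrays share 1 slide. Of the 41 tested export genes, 27 were called, all lower, under spike-in scaling, where 9592 of all 20328 tested probes were called, 9076 of them lower. With the trend, 2 export genes (SRSF7 and ALYREF) were called, beside 3083 of all 20328 probes. By the unadjusted t-test 4 were called, beside 4115 of 20328. The THOC7 difference of -1.08 was -1.26 under spike-in scaling and -0.997 under normexp correction, and between -1.15 and -1.01 with 1 array left out. PSMD6 changed from 0.02 to -0.17 under spike-in scaling (limma adjusted p = 0.0313), whose median over all probes was -0.20. The cause of these changes was not tested. The THOC1, PRICKLE2 and GLE1 probes were faint, and whether signal over background limits their values was not tested. Both added treatments of flagged spots left the member and export counts as they were.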

Other observations

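Probes of 1 export gene did not always give the same value. PCID2, a TREX-2 subunit, had 3 tested probes. The brightest gave -0.03 and the next 0.07, whereas the dimmest was -1.07 ± 0.08 (SD, n = 2) with the mimic and -1.99 ± 0.21 in the control, a difference of 0.93 with a limma 95% interval of 0.57 to 1.29 and an adjusted p of 0.0644. ZC3H11A, an adaptor of TREX, had 5 tested probes with differences from -0.32 to 0.14, of which the lowest had a limma 95% interval of -0.50 to -0.14 (adjusted p = 0.101) and the brightest gave -0.08. NCBP1 gave -0.10 on its brightest probe and 0.39 (limma 95% interval -0.11 to 0.89) on a dim one. SRSF3 gave -0.09 on its brightest probe and -0.23 (limma 95% interval -0.51 to 0.05) on another. RANBP2 gave -0.15 on its brightest probe and -0.43 (limma 95% interval -1.80 to 0.94) on a dim one. Over every tested probe of the listed export genes, 56 in number, 0 passed the adjusted threshold in limma, against 2.62% of all tested probes. An unadjusted limma p below 0.05 was found for 6, against 25.3% of all tested probes. The dim PCID2 probe was the only 1 over 1.5-fold, against 3.90% of all tested probes. These probes were singled out after their values were seen.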
